A study of Mus musculus with 12 samples.

Results

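The 9 genes described here encode receptors through which gut hormones, glucagon, lipids and nerve transmitters reach islet cells. They were chosen by name: the class B peptide hormone receptors Glp1r, Gipr and Gcgr, the lipid receptors Ffar1, Ffar4 and Gpr119, and the receptors of galanin (Galr1), adrenaline and noradrenaline (Adra2a) and acetylcholine (Chrm3). They are 9 of 45808 genes of the bulk count table and 9 of 31055 genes of the single-cell matrices, and all of them were found in both.

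The study asked how the γ-cells of mouse islets, which make pancreatic polypeptide (Ppy), compare with the other islet cells. For single-cell RNA-seq, islet cells of Ppy-YFPi mice aged 2 months (Ppy-rtTA; TetO-Cre; R26-YFP) were sorted into a YFP+ and a YFP- fraction in 2 independent experiments of pooled mice, which gave 4 libraries. The mice had received doxycycline (DOX) at 1 mg/ml in the drinking water, which induces Cre in Ppy-expressing cells and marks these and their progeny for good. The paper reports that a minority of Ppy-expressing cells stayed without the tag. Bulk RNA-seq covered YFP+ sorted γ-cells of Ppy-rtTA; TetO-Cre; R26-YFP mice (5 libraries) and δ-cells of Sst-Cre; R26-YFP mice (3 libraries), the latter being the somatostatin (Sst) cells. These mice were 2 months old as well, and the labels repeat the DOX note for both cell types, although Sst-Cre needs no DOX to act, so that whether the δ-cell mice received it is not settled by the labels. In the Ppy-rtTA animals the rtTA sequence replaced 1 Ppy allele, so the γ-cell label went along with a single intact Ppy gene, and a YFP+ cell is one that had expressed Ppy, whatever it expressed when sorted. Genotype, sequencer model and sequencing layout differed between the bulk cell types (paired-end reads for γ-cells, single-end for δ-cells). Cell type, genotype, sequencer and layout thus cannot be told apart there. Likewise, nearly all cells with Ppy as their only hormone came from YFP+ libraries and nearly all with another single hormone from YFP- libraries.

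All 9 receptors span the membrane 7 times and signal through G proteins. The receptors of GLP-1, GIP and glucagon act mainly through Gs, which raises cyclic AMP and in β-cells amplifies insulin release at high glucose. FFAR1 and FFAR4 bind long-chain fatty acids, the former coupling to Gq in β-cells, and GPR119 binds lipid amides and lysophospholipids and couples to Gs. GALR1 and ADRA2A couple to Gi and restrain secretion, as adrenaline does on insulin during stress, whereas CHRM3 couples to Gq and carries the vagal stimulus of insulin release.

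Library depth differed between groups. Total counts per bulk library ranged from 14633838 to 31784878 in γ-cells and from 7641916 to 11773598 in δ-cells, and the 4 single-cell libraries held 1300 to 1689 cells with a median of 4237 to 8338 UMIs (unique molecular identifiers, each tagging 1 captured RNA molecule) per cell. Between 1 and 6 cell barcodes were shared by any 2 single-cell libraries. The bulk γ-cell libraries held the RNA of other hormones beside 95177 to 123905 CPM (counts scaled to a common library total) of Ppy: 46784 to 94384 CPM of Gcg, 5489 to 17384 CPM of Ins2 and 7392 to 12540 CPM of Sst. The δ-cell libraries held 60259 to 87413 CPM of Sst, with 9400 to 15506 CPM of Ppy, 1346 to 5781 CPM of Gcg and 807 to 2158 CPM of Ins2. Over all genes tested, 20.7% were called higher and 14.2% lower in γ-cells. Of 17 acinar cell markers, 16 were lower in γ-cells, and their summed level was 2735 to 16225 CPM in γ-cell and 24941 to 104672 CPM in δ-cell libraries. Of 19 ductal markers, 10 were lower and 1 higher. Of 19 stromal markers, 5 were higher, near the share over all genes, and 0 lower. Their summed levels of 1359 to 6087 CPM in γ-cell and 379 to 1571 CPM in δ-cell libraries overlapped. The part of these lists in the receptor differences was not tested. In a sorted bulk sample, fewer cells of a type and less RNA per cell cannot be told apart.

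Bulk γ- and δ-cells were compared first, to ask which receptors distinguish these sorted populations. Levels are CPM after TMM scaling, which corrects library sizes for a few dominant genes, and differences are log2 fold changes (γ-cells minus δ-cells) with their standard error (SE) from edgeR's quasi-likelihood test, with p adjusted over all genes tested. Of the 9 receptors, 5 were higher in γ-cells (Ffar1, Gpr119, Galr1, Adra2a and Chrm3), 1 was lower (Gcgr), and Glp1r, Gipr and Ffar4 passed no call at an adjusted p of 0.05 and a log2 fold change of 1. Over all 17926 genes tested, 35% were called, 20.7% as higher in γ-cells and 14.2% as lower. The libraries of the 2 cell types did not overlap for the 6 called receptors, and 54.2% of all genes tested did not overlap either. The median log2 fold change was 2.28 over the receptors and -0.06 over all genes tested. Upper-quartile scaling and total counts without TMM moved the median of all genes to -0.35 and -0.33 and its split from 3715 higher and 2553 lower to 3055 and 3746 and to 3090 and 3583, and the receptor counts were 5 higher and 1 lower under both.

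**Figure D1:**
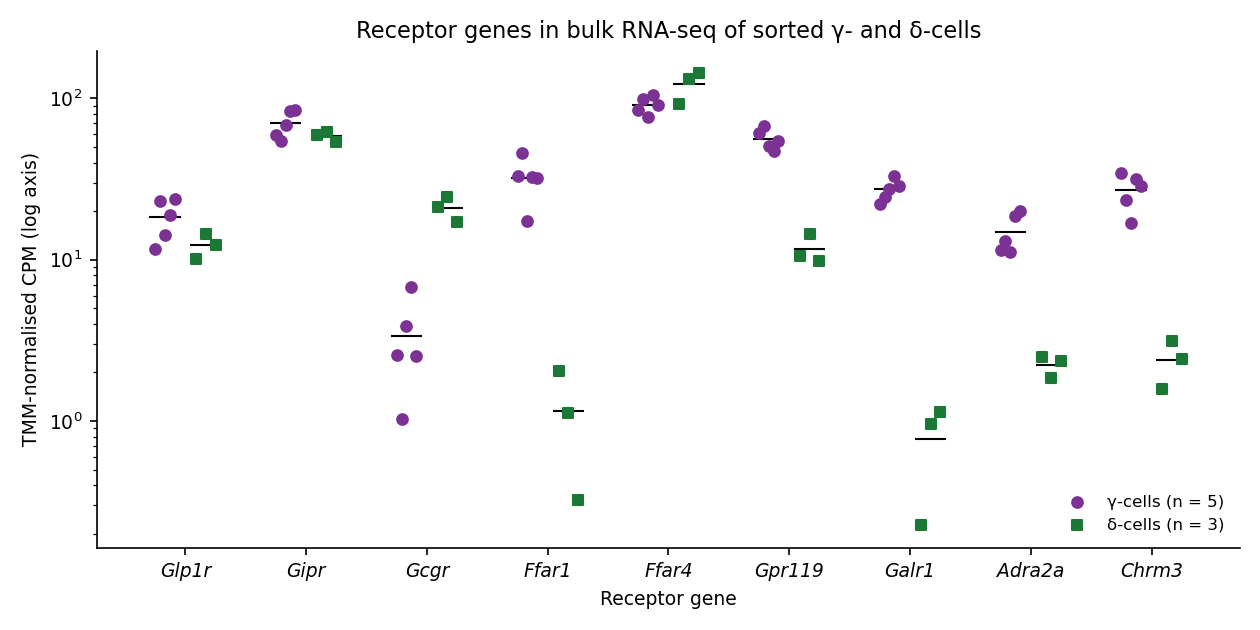
Level of each receptor gene in the 5 γ-cell libraries (circles) and the 3 δ-cell libraries (squares) of the bulk data, in TMM-normalised CPM on a log axis, with the group means as lines. Ffar1, Gpr119, Galr1, Adra2a and Chrm3 lie higher in every γ-cell library, Gcgr lies higher in every δ-cell library, and the libraries overlap for Glp1r, Gipr and Ffar4.

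The single-cell data separated what the bulk samples mixed. Cells were put into classes by the hormones they expressed above a threshold and by cluster. A single-hormone cell had to lie in a cluster high in that hormone. Cells with Ppy and another hormone could lie in a cluster high in any hormone. This gave 1444 Ppy+, 605 Gcg+ (α-cells, glucagon), 524 Ins2+ (β-cells, insulin) and 240 Sst+ cells with a single hormone. Ppy was found with Gcg in 751 cells (Ppy+Gcg+), with Sst in 375 (Ppy+Sst+) and with Ins2 in 123 (Ppy+Ins2+). Thresholds alone would give 1639 Ppy+, 677 Gcg+, 531 Ins2+ and 277 Sst+ cells. Of the Ppy+ cells 1434 were YFP+, whereas 1 Ins2+ cell and 0 Gcg+ and Sst+ cells were. UMIs were summed per class and experiment and the 14 sums were tested together with edgeR, with a call at an adjusted p of 0.05 and a natural-log fold change of 0.5. Glp1r had too few UMIs to pass the filter of this test, and over the other 8 receptors 34 of 48 comparisons between single-hormone classes were called, against 17% over all 10295 genes tested. Every receptor tested was called between Gcg+ and Ins2+ cells (8 of 8, background 22.8%) and between Ins2+ and Sst+ cells (8 of 8, background 15.9%). Between Ppy+ and Ins2+ cells 6 of 8 were called (background 26.6%), between Ppy+ and Sst+ cells 5 of 8 (background 12.2%), between Gcg+ and Sst+ cells 4 of 8 (background 12.1%), and between Ppy+ and Gcg+ cells 3 of 8 (background 12.5%). The filter keeps a gene that is high enough in the sums of a single class. Gcgr, with 66 UMIs in Ins2+ cells and at most 4 in any other class, passed it only through Ins2+ cells. Its calls, all against Ins2+ cells, were favoured by that filter and add no support to these counts.

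**Figure D2:**
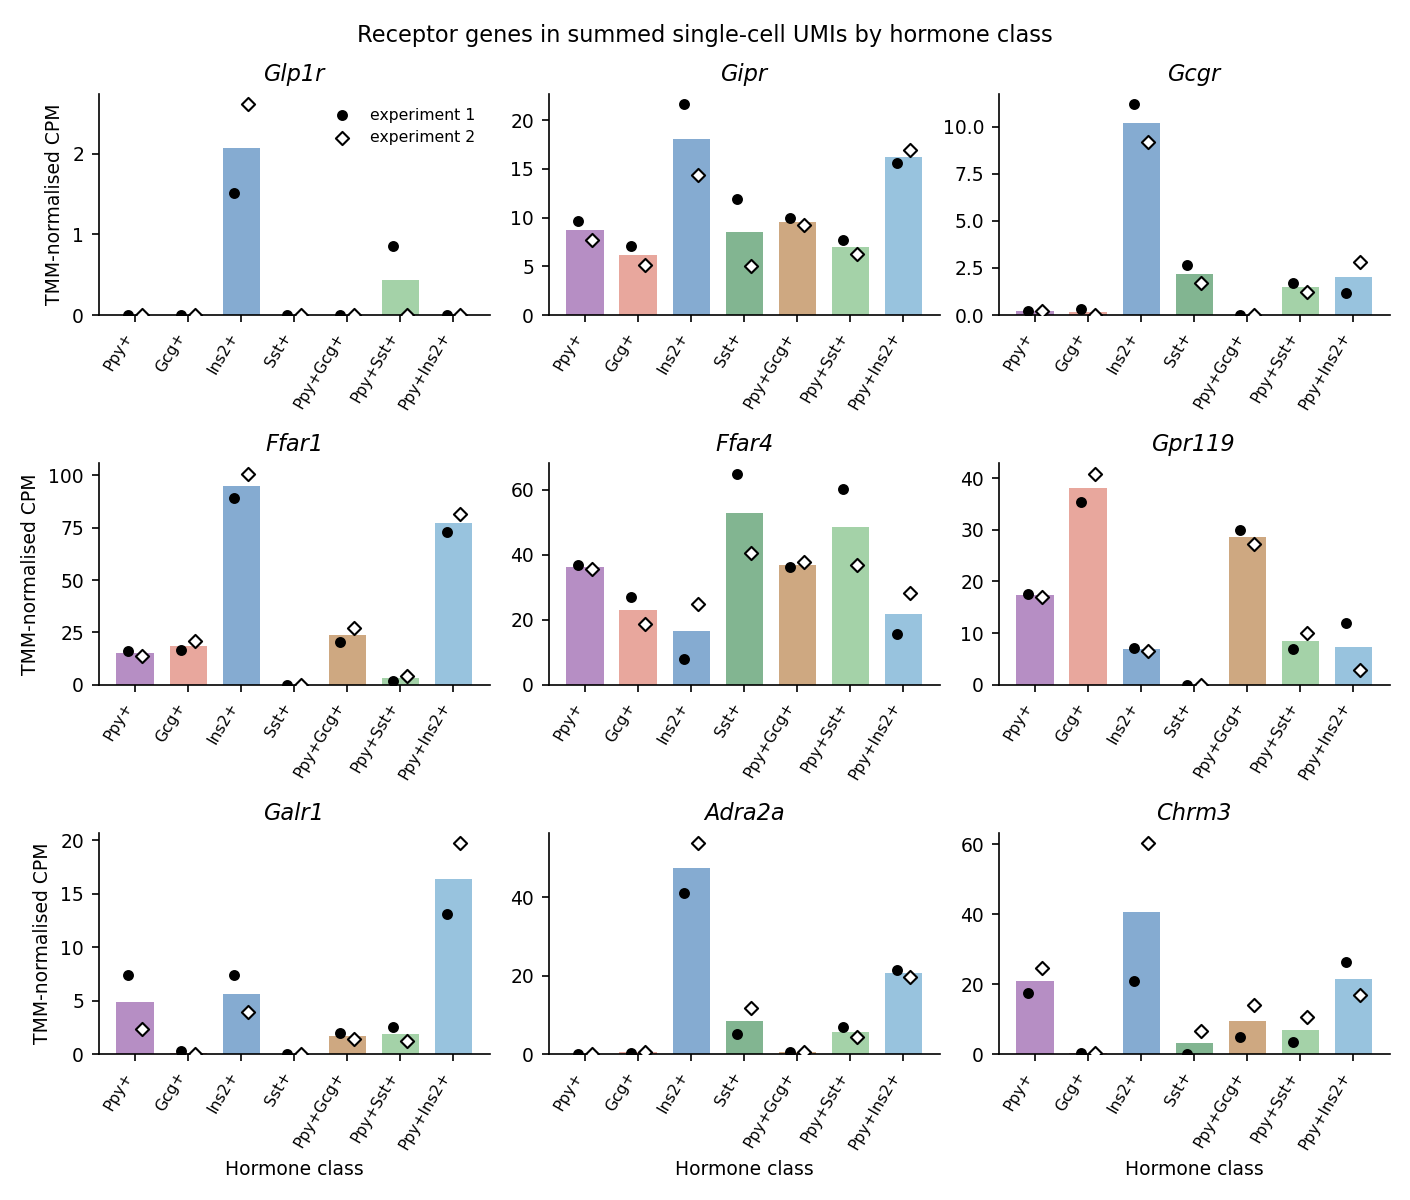
Level of each receptor gene in the summed UMIs of 7 hormone classes, in TMM-normalised CPM; bars give the mean of 2 experiments, filled circles experiment 1 and open diamonds experiment 2. Glp1r, Gcgr, Ffar1 and Adra2a have their highest bar in Ins2+ cells, as do Gipr and Chrm3, Ffar4 in Sst+ cells, Gpr119 in Gcg+ cells and Galr1 in Ppy+Ins2+ cells.

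Among single-hormone classes the class B receptors Gipr and Gcgr were highest in Ins2+ cells on TMM-scaled levels, and Gcgr had next to no UMIs in Ppy+ cells. The lead of Ins2+ cells in Gipr depended on that scaling. Gipr, the receptor of the gut hormone GIP, was found in every class: its level in experiments 1 and 2 was 9.65 and 7.71 CPM in Ppy+ cells, 7.07 and 5.15 CPM in Gcg+ cells, 21.6 and 14.4 CPM in Ins2+ cells and 11.9 and 5.07 CPM in Sst+ cells. Ins2+ cells stood above the other single-hormone classes, whose levels overlapped or lay close to each other. Gipr was lower in Ppy+ than in Ins2+ cells (log2 fold change -1.12 ± 0.24 (SE), edgeR adjusted p = 1.9e-04) and did not differ detectably from Gcg+ (0.50 ± 0.30, edgeR adjusted p = 0.25) or Sst+ cells (-0.01 ± 0.44, edgeR adjusted p = 0.99). Gcg+ cells were also below Ins2+ cells (-1.62 ± 0.28, edgeR adjusted p = 1.0e-05). The call between Ins2+ and Sst+ cells (1.10 ± 0.40, edgeR adjusted p = 0.048) depended on scaling and turned to -0.38 on total counts without TMM, where the median of all genes also moved, to -1.45. It was lost as well with DESeq2, with its size factors, with Bonferroni adjustment, with no filter, with no replicate block, with sums per library and with classes restricted by YFP fraction. The lower level in Ppy+ and Gcg+ than in Ins2+ cells kept its direction without TMM, at -0.46 and -0.57, but passed no call there. In bulk, Gipr stood at 59.5, 54.8, 68.8, 84.1 and 84.3 CPM in the 5 γ-cell libraries and at 59.6, 61.9 and 53.5 CPM in the 3 δ-cell libraries. The libraries overlapped, and the log2 fold change was 0.27 ± 0.16 (edgeR adjusted p = 0.18).

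Gcgr, the glucagon receptor, was at or under the level of 3 UMIs in Ppy+ and Gcg+ cells. It had 2 UMIs in the Ppy+ cells, 1 UMI in the Gcg+ cells, 3 UMIs in the Sst+ cells and 66 UMIs in the Ins2+ cells. The level in Ins2+ cells was 11.2 and 9.16 CPM in experiments 1 and 2, against 0.205 and 0.22 CPM in Ppy+ cells. The ratio of Ppy+ to Ins2+ cells was 0.0194 (95% counting interval 0.0023 to 0.073; edgeR adjusted p = 2.5e-08), and that of Ins2+ to Sst+ cells was 4.91 (1.61 to 24.4; edgeR adjusted p = 0.042). The latter call was lost on total counts without TMM, with DESeq2, with Bonferroni adjustment, with no replicate block and with classes restricted by YFP fraction. In bulk, Gcgr was lower in γ-cells, with 2.58, 1.02, 3.86, 6.76 and 2.53 CPM in γ-cell and 21.4, 24.3 and 17.2 CPM in δ-cell libraries. Every γ-cell library lay below every δ-cell library (log2 fold change -2.64 ± 0.46, 6.23-fold, edgeR adjusted p = 7.3e-04).

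Glp1r, the receptor of GLP-1, was seen in bulk but hardly in single cells. Its bulk level was 11.7, 23.1, 14.2, 18.9 and 23.8 CPM in γ-cells and 10.2, 14.4 and 12.4 CPM in δ-cells, from 1794 and 423 reads in all. The libraries overlapped, and the log2 fold change of 0.57 ± 0.26 did not pass the test (edgeR adjusted p = 0.092). In single cells Glp1r had 10 UMIs in 524 Ins2+ cells (8 and 2 in experiments 1 and 2), 1 UMI in Ppy+Sst+ cells and 0 in the 5 other classes. Taking 3 counts as the limit that a count of 0 allows, the 0 of 1444 Ppy+ cells allow a share of up to 0.208% of cells with a UMI, and the 0 of 240 Sst+ cells a share of up to 1.25%. On the level scale, 3 UMIs would be 0.319 CPM over the Ppy+ sums and 2.23 CPM over the Sst+ sums. The latter is above the mean of 2.07 CPM in Ins2+ cells, so that Sst+ and Ins2+ cells could not be ranked. Against 3 UMIs on TMM-scaled sums, the Ins2+ level was at least 5.20-fold that of Ppy+ and 3.14-fold that of Gcg+ cells. These bounds rest on 10 UMIs and carry no test in the main fit, whose filter left Glp1r out. With no filter, Ins2+ cells differed from Ppy+ cells (edgeR adjusted p = 0.033) but not detectably from Gcg+ cells (edgeR adjusted p = 0.099). Bulk libraries were made from full-length cDNA and single-cell libraries from the 3′ ends of transcripts, and the part of that difference in these counts was not tested.

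The 3 lipid receptors had 3 different orders among the classes. Ffar1 led in Ins2+ cells, Ffar4 in Sst+ cells and Gpr119 in Gcg+ cells, and both Ffar1 and Gpr119 had 0 UMIs in Sst+ cells. The sequence upstream of each gene is printed to set these receptors side by side, as the 150 bases that begin 250 bases before the RefSeq start (GRCm38.p6), where no annotated exon lies. Ffar1 (minus strand) spans chr7:30857390-30861564 with 1 exon and its window is chr7:30861571-30861720; Ffar4 (plus strand) spans chr19:38097071-38114263 with 3 exons and its window is chr19:38096829-38096978. Gpr119 (minus strand) spans chrX:48667979-48674478 with 2 exons and its window is chrX:48674579-48674728. Capitals mark matches to the E-box CANNTG and to the Maf half-site TGCTGA, searched on both strands.

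Ffar1: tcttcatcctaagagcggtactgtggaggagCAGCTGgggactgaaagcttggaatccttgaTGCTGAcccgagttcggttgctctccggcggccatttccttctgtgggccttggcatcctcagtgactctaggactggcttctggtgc
Ffar4: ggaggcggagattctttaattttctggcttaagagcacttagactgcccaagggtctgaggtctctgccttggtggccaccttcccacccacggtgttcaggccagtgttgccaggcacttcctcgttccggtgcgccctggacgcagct
Gpr119: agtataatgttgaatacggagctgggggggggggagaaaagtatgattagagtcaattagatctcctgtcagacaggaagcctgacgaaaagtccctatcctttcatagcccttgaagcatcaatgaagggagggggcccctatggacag

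The Ffar1 window held 1 match to each of these motifs and the Ffar4 and Gpr119 windows held 0. Of 32851 RefSeq promoters, 49.3% held an E-box match and 9.62% a Maf half-site match in the same window, so that neither match is rare. Matches to the GC box GGGCGG, the cyclic AMP response element TGACGTCA and the homeodomain core TAATTA numbered 0 in all 3 windows. These matches are letters in a window and say nothing about binding. Promoters of 7 of the 9 receptors were found in the RefSeq table.

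Ffar1, a fatty acid receptor that amplifies insulin release, led in β-cells. Its level was 89.2 and 100.8 CPM in Ins2+ cells, 16.5 and 21.0 CPM in Gcg+ cells and 16.01 and 13.9 CPM in Ppy+ cells, and 0 UMIs were counted in Sst+ cells. Ppy+ and Gcg+ cells did not differ detectably (log2 fold change -0.31 ± 0.20, edgeR adjusted p = 0.31), and both lay below Ins2+ cells, by -2.66 ± 0.16 for Ppy+ (edgeR adjusted p = 4.2e-17) and by -2.35 ± 0.17 for Gcg+ cells (edgeR adjusted p = 1.6e-14). Set against 3 UMIs over the Sst+ sums, the Ffar1 level of Ppy+ cells was at least 6.72-fold higher (edgeR adjusted p = 1.1e-05), that of Gcg+ cells at least 8.37-fold higher (edgeR adjusted p = 1.7e-06) and that of Ins2+ cells at least 40.7-fold higher (edgeR adjusted p = 2.0e-14). At least 1 UMI was found in 62.0% of Ins2+ cells (95% exact interval 57.7 to 66.2%), 13.1% of Gcg+ cells, 8.38% of Ppy+ cells and 0 of 240 Sst+ cells, and in 0 of 254 endothelial-like cells, whose median of 1731 UMIs was far below the 22489 of Ins2+ and 6776.5 of Ppy+ cells. With each cell thinned to 1000 UMIs the shares were 7.63% in Ins2+, 1.98% in Gcg+ and 0.83% in Ppy+ cells. Stromal-like and macrophage-like cells stood at 0.735% and 0.376% there, with 95% exact intervals that overlapped that of Ppy+ cells. At equal total UMIs Ffar1 in Ppy+ cells was thus not detectably above these other types. Both types held islet hormone RNA, however. In unscaled CPM, Ppy stood at 29784 and 22826 in macrophage-like, 8341 and 4069 in stromal-like and 132 and 249 in endothelial-like cells of experiments 1 and 2. The part of islet-cell RNA in their Ffar1 UMIs was not tested. With classes by hormone thresholds alone, 2 of 277 Sst+ cells held 3 UMIs of Ffar1. B-lineage-like cells, at a median of 8547 UMIs, had Ffar1 in 4.92%. Bulk libraries gave 32.8, 46.1, 17.4, 32.6 and 32.3 CPM in γ-cells and 2.03, 1.12 and 0.325 CPM in δ-cells. Every γ-cell library was above every δ-cell library (log2 fold change 4.86 ± 0.50, 29.0-fold, edgeR adjusted p = 1.8e-05), and without δ-cell library 1, the highest of its group, the value was 5.47.

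Ffar4 was measured in all classes. Its level was 64.9 and 40.6 CPM in Sst+ cells, 36.8 and 35.5 CPM in Ppy+ cells, 26.9 and 18.8 CPM in Gcg+ cells and 7.97 and 24.9 CPM in Ins2+ cells. The Ins2+ level was the least alike between experiments, and no order between Gcg+ and Ins2+ cells held in both. Ppy+ cells were above Ins2+ cells (log2 fold change 1.82 ± 0.26, edgeR adjusted p = 3.1e-07), though only by 0.51 without experiment 1. They differed from Gcg+ cells by 0.65 ± 0.21 (edgeR adjusted p = 0.023), under the fold threshold, and from Sst+ cells by -0.57 ± 0.26 (edgeR adjusted p = 0.16). Sst+ cells were above Gcg+ cells (Gcg+ minus Sst+ -1.23 ± 0.29, edgeR adjusted p = 2.1e-03) and above Ins2+ cells (Ins2+ minus Sst+ -2.40 ± 0.34, edgeR adjusted p = 6.4e-07), the latter by -0.70 without experiment 1. The call of Gcg+ above Ins2+ cells (1.17 ± 0.30, edgeR adjusted p = 2.0e-03) had the opposite sign without experiment 1, at -0.40. The share of cells with a UMI was 24.6% of Sst+, 20.1% of Ppy+, 17.4% of Gcg+ and 10.9% of Ins2+ cells, against 0.787% of endothelial-like cells. Macrophage-like cells, at a median of 4260.5 UMIs, stood at 11.1%, so that the Ins2+ share was no higher than theirs. As given for Ffar1, that cluster held islet hormone RNA, and the part of islet-cell RNA in its Ffar4 UMIs was not tested. Thinned to 1000 UMIs the shares were 7.08% in Sst+, 2.98% in Ppy+, 2.48% in Gcg+, 0.954% in Ins2+ and 1.88% in macrophage-like cells. In bulk, Ffar4 stood at 85.1, 99.7, 76.6, 105 and 91.5 CPM in γ-cells and 92.0, 132 and 143 CPM in δ-cells. δ-cell library 1 lay within the γ-cell range (log2 fold change -0.42 ± 0.15, edgeR adjusted p = 0.041, under the fold threshold).

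Gpr119 had its highest level in Gcg+ cells, at 35.4 and 40.9 CPM in experiments 1 and 2. Ppy+ cells followed with 17.7 and 17.0 CPM, Ins2+ cells with 7.21 and 6.55 CPM, and Sst+ cells had 0 UMIs. Each step of this order was called on TMM-scaled sums: Ppy+ below Gcg+ cells by -1.13 ± 0.17 on the log2 scale (edgeR adjusted p = 2.9e-06), Ppy+ above Ins2+ cells by 1.28 ± 0.26 (edgeR adjusted p = 9.9e-05), and Ins2+ at least 3.20-fold above 3 UMIs over the Sst+ sums (edgeR adjusted p = 2.0e-03). The calls of Ppy+ above Ins2+ and of Ins2+ above Sst+ cells were lost with Bonferroni adjustment. Of the Gcg+ cells 26.4% had a UMI, of the Ppy+ cells 10.0% and of the Ins2+ cells 7.82%. Ins2+ cells had the deepest coverage, and the share in endothelial-like cells was 0.394%. At 1000 UMIs per cell the shares were 3.80% in Gcg+, 1.66% in Ppy+ and 0.382% in Ins2+ cells. Macrophage-like and stromal-like cells stood at 0.376% and 0.368% there, and 0 of 254 endothelial-like cells had a UMI. At equal depth Gpr119 in Ins2+ cells, with 2 UMIs, was thus not detectably above these other types. Nor was it detectably above Sst+ cells there, of which 0 of 240 had a UMI (upper limit 1.53%). In bulk, γ-cells held 61.4, 67.8, 50.8, 46.9 and 54.3 CPM and δ-cells 10.5, 14.4 and 9.84 CPM, without overlap (log2 fold change 2.28 ± 0.18, 4.85-fold, edgeR adjusted p = 2.5e-06). Gcg, which marks the class with the highest single-cell level of Gpr119, was itself 22.9-fold higher in these γ-cell than δ-cell libraries (log2 fold change 4.52 ± 0.55, edgeR adjusted p = 6.2e-05), and its part in the bulk difference was not tested.

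**Figure D3:**
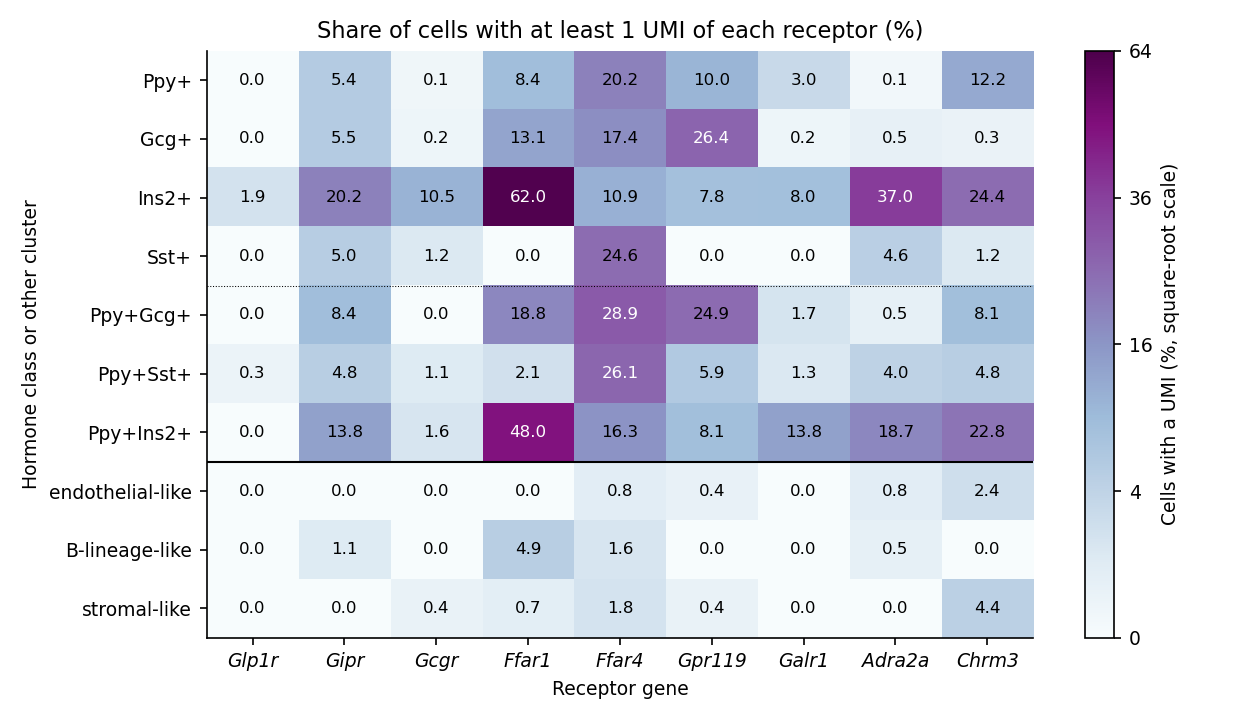
Share of cells (%) with at least 1 UMI of each receptor in the 7 hormone classes and, below the solid line, in endothelial-like, B-lineage-like and stromal-like cells; colour follows the square root of the share. Ins2+ cells, which were also the deepest, have the highest share among single-hormone classes for all receptors but Ffar4 and Gpr119, and 0 of the Sst+ cells have a UMI of Ffar1, Gpr119 or Galr1.

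The Gi-coupled receptors Galr1 and Adra2a were both found in Ins2+ cells, and Ppy+ cells held Galr1 at a like level but next to no Adra2a. Galr1, on chromosome 18, had 47 UMIs in Ppy+ cells, 42 in Ins2+ cells, 1 in Gcg+ cells and 0 in Sst+ cells. Its level was 7.39 and 2.42 CPM in Ppy+ cells and 7.40 and 3.93 CPM in Ins2+ cells, with overlapping experiments (log2 fold change -0.22 ± 0.40, edgeR adjusted p = 0.70). The ratio of Ppy+ to Gcg+ cells was 28.4 (95% counting interval 4.85 to 1145; edgeR adjusted p = 9.9e-05), a call lost with Bonferroni adjustment and with sums per library. Against 3 UMIs over the Sst+ sums, Ppy+ cells were at least 2.24-fold higher (edgeR adjusted p = 0.023), a call that DESeq2, Bonferroni adjustment, no replicate block and library sums did not keep. In bulk, Galr1 had the largest fitted fold of the 9 receptors: 22.2, 24.6, 27.6, 33.3 and 28.7 CPM in γ-cells against 0.226, 0.958 and 1.14 CPM in δ-cells. The groups lay far apart (log2 fold change 5.06 ± 0.37, 33.3-fold, edgeR adjusted p = 1.3e-06).

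Adra2a, the adrenergic receptor through which adrenaline blocks insulin release, differed in direction between the bulk and the single-cell data. In single cells it had 258 UMIs in Ins2+ cells, 11 in Sst+ cells, 3 in Gcg+ cells and 1 in 1444 Ppy+ cells. Its level was 41.2 and 53.7 CPM in Ins2+ cells and 5.30 and 11.8 CPM in Sst+ cells, against 0 and 0.22 CPM in Ppy+ cells and 0.337 and 0.736 CPM in Gcg+ cells. The ratio of Ppy+ to Ins2+ cells was 0.00248 (95% counting interval 6.3e-05 to 0.014; edgeR adjusted p = 1.2e-18) and that of Ppy+ to Sst+ cells 0.013 (3.0e-04 to 0.0895; edgeR adjusted p = 7.9e-06). Gcg+ cells were likewise below Sst+ cells (ratio 0.0646, 0.0116 to 0.244; edgeR adjusted p = 4.1e-04), and Ins2+ cells above Sst+ cells (log2 fold change 2.49 ± 0.38, edgeR adjusted p = 2.2e-06). The call of Gcg+ below Sst+ cells, from 3 and 11 UMIs, was lost with Bonferroni adjustment. A UMI was present in 37.0% of Ins2+, 4.58% of Sst+, 0.496% of Gcg+ and 0.0693% of Ppy+ cells. Endothelial-like cells stood at 0.787%, so that the shares in Gcg+ and Ppy+ cells are no more than background. Thinned to 1000 UMIs, the share was 2.29% in Ins2+ (95% exact interval 1.19 to 3.97%) and 1.67% in Sst+ cells (0.456 to 4.21%). At equal depth the shares of Ins2+ and Sst+ cells were thus not detectably different. The log2 fold change of Ins2+ minus Sst+ sums ran from 1.06 to 2.53 over 13 settings. Ins2+ cells held 547 UMIs of Ffar1 beside their 258 of Adra2a, whereas Sst+ cells held 0 beside their 11.

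In bulk, Adra2a was higher in γ-cells, at 11.5, 13.1, 11.1, 18.6 and 20.2 CPM, than in δ-cells, at 2.48, 1.84 and 2.36 CPM. The groups did not overlap (log2 fold change 2.74 ± 0.30, 6.69-fold, edgeR adjusted p = 3.0e-05). Ins2, which marks the class with the highest Adra2a in single cells, was at a mean of 11570 ± 4413 CPM (SD, n = 5) in these γ-cell and 1320 ± 732 CPM (SD, n = 3) in these δ-cell libraries. Its part in the bulk difference was not tested. The bulk γ-cells were sorted by YFP alone and so held tagged cells that had expressed Ppy, with or without another hormone. The Ppy+ class was limited to cells with Ppy as their single hormone.

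**Figure D4:**
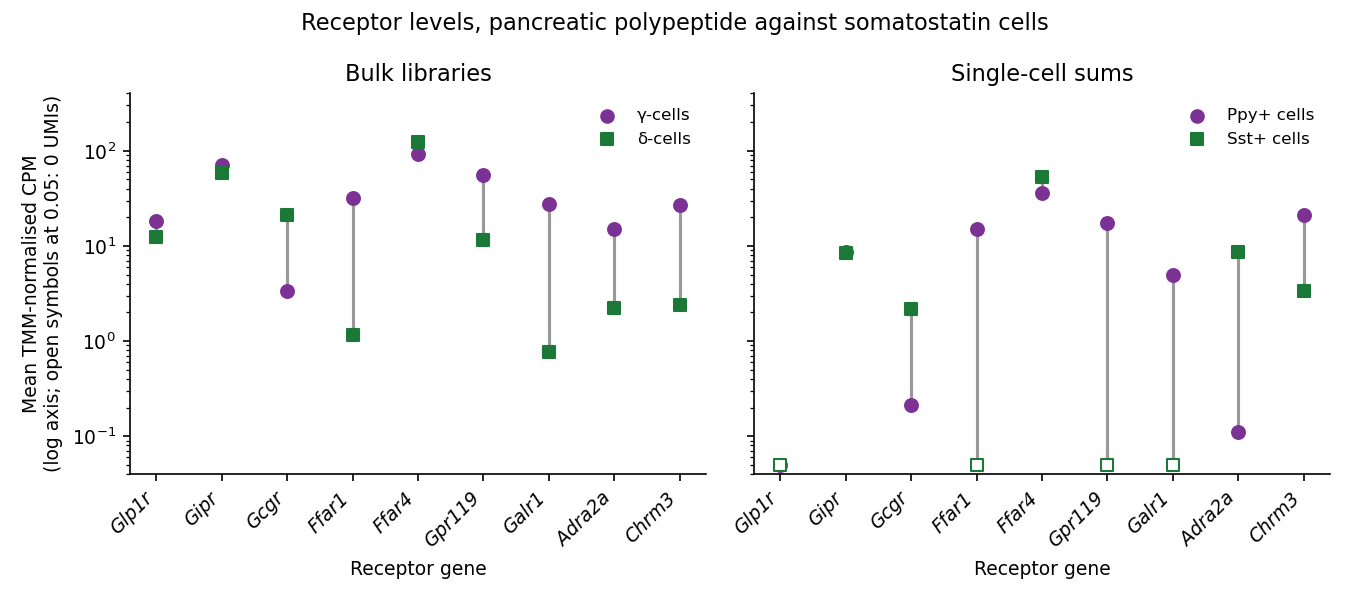
Mean level of each receptor, in TMM-normalised CPM on a log axis, in bulk γ- and δ-cells (left) and in the single-cell sums of Ppy+ and Sst+ cells (right); lines join both groups and open symbols placed at 0.05 stand for 0 UMIs. Adra2a is higher in γ-cells than δ-cells in bulk, at 14.9 against 2.23 CPM, and lower in Ppy+ than Sst+ cells, at 0.11 against 8.57 CPM, while Ffar1, Gpr119, Galr1 and Chrm3 are higher in the Ppy-expressing group in both.

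Chrm3, the muscarinic receptor of acetylcholine, was higher in Ppy+ and Ins2+ cells than in Gcg+ and Sst+ cells. Its level was 17.5 and 24.7 CPM in Ppy+ cells, 21.1 and 60.2 CPM in Ins2+ cells, 0.337 and 0.368 CPM in Gcg+ cells and 0 and 6.76 CPM in Sst+ cells. Experiment 2 was the higher in each of these classes. Ppy+ and Gcg+ cells differed at a ratio of 59.5 (95% counting interval 16.3 to 495; edgeR adjusted p = 6.8e-11), and Ppy+ and Sst+ cells by 2.78 ± 0.62 on the log2 scale (edgeR adjusted p = 1.0e-03), by 1.86 without experiment 1. The call of Ppy+ above Sst+ cells rests on 4 Sst+ UMIs, all from experiment 2, and was lost with Bonferroni adjustment. The step between Ppy+ and Ins2+ cells was -0.71 ± 0.23 (edgeR adjusted p = 0.012), just under the fold threshold of 0.72. A UMI was found in 24.4% of Ins2+ and 12.2% of Ppy+ cells; the 0.331% of Gcg+ and 1.25% of Sst+ cells lay under the 2.36% of endothelial-like and 4.41% of stromal-like cells and are no more than background. Thinned to 1000 UMIs, the share was 1.87% in Ppy+ and 0.954% in Ins2+ cells, against 1.47% in stromal-like and 1.18% in endothelial-like cells. At equal total UMIs Chrm3 was thus not detectably above stromal-like and endothelial-like cells in either class. Hormone RNA leaves less room for receptor UMIs in Ppy+ and Ins2+ cells at a common total. Thinned macrophage-like cells held it in 0 of 532 (upper limit 0.691%) and Gcg+ cells in 0 of 605 (upper limit 0.608%). Both limits lay below the 95% exact interval of 1.24 to 2.71% in Ppy+ cells, which pools the cells of both experiments. By experiment the Ppy+ share was 1.04% (0.419 to 2.13%) in experiment 1 and 2.60% (1.59 to 3.98%) in experiment 2. The interval of experiment 1 reached below both limits, so that the separation did not hold in each experiment. These intervals count cells, which are not replicates. In bulk, Chrm3 was at 34.3, 23.6, 16.9, 31.5 and 28.7 CPM in γ-cells and at 1.58, 3.11 and 2.44 CPM in δ-cells. No library of one cell type reached the range of the other (log2 fold change 3.48 ± 0.32, 11.2-fold, edgeR adjusted p = 6.6e-06). Stromal-like cells also held Chrm3 UMIs. Of 19 stromal markers, 5 were called higher in the γ-cell libraries, near the 20.7% over all genes tested. Their part in the Chrm3 difference was not tested.

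Cells that carried a second hormone beside Ppy differed from Ppy+ cells in 8 of 24 comparisons of the 8 receptors tested, against 6.04% over all genes tested. The study left out such cells when they lay outside its own bihormonal cluster, whereas here they were kept, so these classes are wider than those of the study. Ppy+Gcg+ cells had 2 called receptors (background 2.83%), Ppy+Sst+ cells 4 (background 7.69%) and Ppy+Ins2+ cells 2 (background 7.59%). Not all of these cells bore the YFP tag. In experiments 1 and 2 the Ppy+Gcg+ class held 45 and 38 YFP- cells, Ppy+Sst+ 63 and 58, and Ppy+Ins2+ 11 and 3. Since tagging of Ppy-expressing cells was incomplete, the YFP- cells are not thereby outside the γ-cell lineage. In experiments 1 and 2, 8 and 3 cells were removed as doublets (barcodes with more than 1 cell) from the YFP+ libraries, and 54 and 65 from the YFP- libraries. The part of remaining doublets in these classes was not tested. Gpr119 was higher in Ppy+Gcg+ cells, at 30.0 and 27.2 CPM (log2 fold change 0.73 ± 0.17, edgeR adjusted p = 6.7e-03), and lay between the Ppy+ and Gcg+ classes. Chrm3 was lower there, at 5.08 and 14.0 CPM (-1.18 ± 0.25, edgeR adjusted p = 2.0e-03), again between both. The YFP- cells of this class had 0 UMIs of Chrm3 and the YFP+ cells 20 and 50. Both calls were lost with DESeq2, with Bonferroni adjustment and with no replicate block, and that of Gpr119 also with no doublet removal. Ffar1 in Ppy+Gcg+ cells was 20.6 and 27.2 CPM (0.66 ± 0.18, edgeR adjusted p = 0.022, under the fold threshold).

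In Ppy+Sst+ cells Ffar1, Gpr119 and Chrm3 were lower and Adra2a was higher. Ffar1 was 1.72 and 4.35 CPM (log2 fold change -2.21 ± 0.40, edgeR adjusted p = 9.0e-05), Gpr119 6.88 and 9.95 CPM (-0.997 ± 0.30, edgeR adjusted p = 0.026) and Chrm3 3.44 and 10.6 CPM (-1.57 ± 0.36, edgeR adjusted p = 2.1e-03). Adra2a had 15 UMIs, at 6.88 and 4.35 CPM, a ratio to Ppy+ cells of 51.0 (95% counting interval 7.84 to 2145; edgeR adjusted p = 2.2e-05). These cells came from both fractions: in experiments 1 and 2 the YFP- cells had 5 and 2 UMIs of Adra2a and 0 of Ffar1, and the YFP+ cells had 3 and 5 UMIs of Adra2a and 2 and 7 of Ffar1. Galr1, which like Ffar1 and Gpr119 had 0 UMIs in Sst+ cells, stood at 2.58 and 1.24 CPM and did not pass the test (-1.34 ± 0.68, edgeR adjusted p = 0.23). Few Ppy+Sst+ cells lay in clusters led by Ppy: 1 YFP- and 9 YFP+ cells in experiment 1, and 1 and 37 in experiment 2. With only these, no call was kept, the Gpr119 difference was 0.16, and those of Ffar1, Adra2a and Chrm3 were -1.96, 4.52 and -1.11.

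In Ppy+Ins2+ cells, of which 2 and 4 lay in clusters led by Ppy in experiments 1 and 2, Ffar1 and Adra2a were higher. Ffar1 reached 73.0 and 81.7 CPM (log2 fold change 2.36 ± 0.23, edgeR adjusted p = 1.7e-10), close to the Ins2+ level, and Adra2a 21.5 and 19.7 CPM from 25 UMIs (ratio 198, 95% counting interval 32.3 to 8112; edgeR adjusted p = 4.2e-10). Galr1 was 13.2 and 19.7 CPM, the highest level of any class, but did not pass the test against Ppy+ cells (1.498 ± 0.51, edgeR adjusted p = 0.054). Gcgr, at 2 UMIs, remained near the floor of 2.52 CPM that 3 UMIs would give in this class. In unscaled CPM, Ins2 stood at 393837 and 317529 and Ppy at 37506 and 50118 in these cells.

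Most single cells gave UMIs of few of the receptors. At least 1 receptor UMI was counted in 45.7% of Ppy+, 48.9% of Gcg+, 87.8% of Ins2+ and 33.3% of Sst+ cells, and UMIs of 2 or more receptors in 10.8%, 12.1%, 60.3% and 3.33% of these classes. Median depth ran from 3725.5 UMIs in Sst+ to 22489 in Ins2+ cells. Thinned to 1000 UMIs per cell, the share with any receptor UMI was 8.52% in Ppy+, 9.09% in Gcg+, 14.1% in Ins2+ and 12.1% in Sst+ cells.

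In bulk, levels of the receptors were compared with each other per kilobase of exon. In γ-cells the order was Ffar4 (65.3 ± 7.99 CPM per kb, SD, n = 5), Gpr119 (24.8 ± 3.68), Gipr (20.2 ± 3.93), Galr1 (9.12 ± 1.41), Ffar1 (7.72 ± 2.43), Chrm3 (4.32 ± 1.10), Glp1r (3.16 ± 0.92), Adra2a (3.09 ± 0.87) and Gcgr (1.28 ± 0.82). Gpr119 and Gipr, Galr1 and Ffar1, Ffar1 and Chrm3, Chrm3 and Glp1r, and Glp1r and Adra2a were neighbours whose ranges of mean ± SD overlapped. In δ-cells Ffar4 also led (87.4 ± 19.2 CPM per kb, SD, n = 3), followed by Gipr (16.8 ± 1.24), Gcgr (7.99 ± 1.38), Gpr119 (5.10 ± 1.08) and Glp1r (2.12 ± 0.37). Adra2a, Chrm3, Ffar1 and Galr1 were all under 0.5 CPM per kb there, and neighbours among these 4 overlapped in the same way. Exons of none of the 9 genes overlap another annotated gene, which bears on counting in these unstranded libraries.

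Other genes of these receptor families moved in both directions. Of 32 relatives (other class B, fatty acid, galanin, adrenergic and muscarinic receptors), 31 were in the bulk table and 19 were tested, of which 6 were higher and 5 lower in γ-cells (20.7% and 14.2% over all genes), with a median log2 fold change of -0.68. Vipr1, which binds vasoactive intestinal peptide, was at 132 ± 10.7 CPM in γ-cells and 8.25 ± 1.85 CPM in δ-cells (log2 fold change 3.99 ± 0.16, edgeR adjusted p = 3.4e-08). Adrb1, a Gs-coupled adrenergic receptor, was higher in γ-cells at a low level (2.49 ± 0.79 against 0.0914 ± 0.0187 CPM; edgeR adjusted p = 1.0e-04), as was Adra1b (1.21 ± 1.01 against 0.0808 ± 0.0813 CPM; edgeR adjusted p = 0.038). The Gi-coupled muscarinic receptors Chrm4 (1.73 ± 0.91 against 10.4 ± 3.93 CPM; -2.59 ± 0.47, edgeR adjusted p = 9.5e-04) and Chrm2 (-3.01 ± 1.01, edgeR adjusted p = 0.027) were lower, opposite to the Gq-coupled Chrm3, and so was Vipr2 (-2.48 ± 0.80, edgeR adjusted p = 0.024).

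Among single-cell classes, 5 of the 32 relatives had enough UMIs to be tested. Over all genes the called shares were 12.5% against Gcg+, 26.6% against Ins2+ and 12.2% against Sst+ cells. Compared with Gcg+ cells, Ppy+ cells were lower in 3 and higher in 0, namely Ffar2, a receptor of short-chain fatty acids (11.9 ± 3.17 against 24.0 ± 1.51 CPM, SD, 2 experiments; log2 fold change -0.995 ± 0.20, edgeR adjusted p = 2.8e-04), the lactate receptor Hcar1 (-0.99 ± 0.29, edgeR adjusted p = 0.010) and Vipr1 (-0.87 ± 0.20, edgeR adjusted p = 1.2e-03). Compared with Ins2+ cells, Ppy+ cells were higher in Hcar1 (2.15 ± 0.48, edgeR adjusted p = 3.2e-04) and lower in Ffar3, another receptor of short-chain fatty acids (0.661 ± 0.934 against 9.97 ± 2.56 CPM; -3.88 ± 0.63, edgeR adjusted p = 2.4e-06). Compared with Sst+ cells, Ppy+ cells were higher in Vipr1 (13.3 ± 1.71 against 2.35 ± 1.45 CPM; edgeR adjusted p = 2.9e-03) and Hcar1 (6.38 ± 0.0155 against 0.662 ± 0.936 CPM; edgeR adjusted p = 0.030) and lower in Ffar2 (-1.03 ± 0.32, edgeR adjusted p = 0.021).

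The transducers and regulators behind these receptors, 39 genes of G proteins, adenylyl cyclases, phospholipases, protein kinase A, Epac, receptor kinases and arrestins, were all tested in bulk, where 14 were higher and 2 lower in γ-cells (20.7% and 14.2% over all genes; median log2 fold change 0.22). Gnai1, an inhibitory G-protein subunit, was at 98.2 ± 14.4 CPM in γ-cells and 4.795 ± 0.85 CPM in δ-cells (4.37 ± 0.19, edgeR adjusted p = 4.1e-08). Plcb3, a phospholipase activated by Gq, was higher as well (46.7 ± 10.2 against 3.94 ± 0.31 CPM; 3.56 ± 0.22, edgeR adjusted p = 3.8e-07), and so did the adenylyl cyclase Adcy1 (3.68 ± 0.83, edgeR adjusted p = 3.6e-03). Gnal, a stimulatory subunit (-1.11 ± 0.20, edgeR adjusted p = 9.8e-04), and the receptor kinase Grk4 (-1.02 ± 0.35, edgeR adjusted p = 0.033) were lower.

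In single cells 26 transducers were tested. Between Ppy+ and Gcg+ cells 2 were higher and 5 lower (12.5% of all genes called): Gnas, the main stimulatory subunit, whose locus holds overlapping transcripts, was at 726 ± 40.8 CPM in Ppy+ and 2274 ± 132 CPM in Gcg+ cells (-1.65 ± 0.12, edgeR adjusted p = 3.5e-14). Adcy1 (0.22 ± 0.311 against 7.94 ± 0.748 CPM; edgeR adjusted p = 1.8e-06) and Gnai1 (-1.46 ± 0.24, edgeR adjusted p = 7.6e-06) were also lower, while Rapgef3, the cyclic AMP sensor Epac (1.53 ± 0.50, edgeR adjusted p = 0.023), and the phospholipase Plcb4 (0.78 ± 0.25, edgeR adjusted p = 0.018) were higher. Between Ppy+ and Ins2+ cells, where 26.6% of all genes were called, 5 were higher, led by Rapgef3 (5.25 ± 1.91 against 0.0949 ± 0.134 CPM; edgeR adjusted p = 3.3e-05), Adcy3 (2.17 ± 0.56, edgeR adjusted p = 1.5e-03) and Plcb4 (0.84 ± 0.26, edgeR adjusted p = 8.3e-03), and 6 lower, led by Prkar2b (-2.08 ± 0.32, edgeR adjusted p = 1.3e-06), Grk3 (-1.21 ± 0.16, edgeR adjusted p = 1.1e-07) and Prkacb (-0.94 ± 0.12, edgeR adjusted p = 2.6e-08). Between Ppy+ and Sst+ cells 0 were higher and 3 lower, a share near the 12.2% of all genes called, namely Rapgef3 (-1.59 ± 0.46, edgeR adjusted p = 0.012), Grk3 (-0.94 ± 0.24, edgeR adjusted p = 5.2e-03) and Gnao1 (-0.74 ± 0.16, edgeR adjusted p = 6.5e-04). Adcy1 and Gnai1, higher in γ- than δ-cells in bulk, were among the genes lower in Ppy+ than Gcg+ cells. Neither was called between Ppy+ and Sst+ cells, the single-cell pair nearest to the bulk contrast. There 0 of 26 transducers were higher, against 14 of 39 in bulk. Of all genes tested, 551 of 10295 were higher in Ppy+ than in Sst+ cells, against 3715 of 17926 higher in bulk γ-cells. The transducer counts thus stand on unlike backgrounds, and the difference between these contrasts was not tested.

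On the ligand side, 4 of 9 genes were tested in bulk. Beside Gcg, Gal, the galanin precursor, was called and was lower in γ-cells (2.33 ± 1.48 CPM) than in δ-cells (15.1 ± 10.8 CPM; -2.71 ± 0.71, edgeR adjusted p = 8.5e-03). In single cells 3 were tested. Dpp4, the peptidase that cleaves GLP-1 and GIP, was lower in Ppy+ cells than in Gcg+ (-0.91 ± 0.29, edgeR adjusted p = 0.019), Ins2+ (-1.18 ± 0.28, edgeR adjusted p = 8.8e-04) and Sst+ cells (-1.36 ± 0.42, edgeR adjusted p = 0.020). Th, which makes the precursor of the catecholamines, was at 0.11 ± 0.156 CPM in Ppy+ cells, against 16.2 ± 17.4 CPM in Ins2+ (edgeR adjusted p = 6.9e-12) and 7.47 ± 8.17 CPM in Sst+ cells (edgeR adjusted p = 8.6e-05), with an SD as large as the mean in both. Gcg itself, a hormone that defines the classes, was called lower in Ppy+ cells than in Gcg+ and Ins2+ cells.

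Genes whose level over the 14 sums was most like that of a receptor are given as a description, since the sums share libraries and hormone classes. Among 6118 genes with a mean of at least 10 CPM, Adra2a was closest to Ppp1r1a (Pearson r of log2(CPM + 1) 0.987), Acly (0.978) and Tmem229b (0.976), and Gcgr to Erp29 (0.962), Gng12 (0.949) and Itpkb (0.946). Ffar1 was closest to Wls (0.952), Ociad2 (0.949) and Ddc (0.945), Gpr119 to Rtn3 (0.938), Ttr (0.937) and Dock11 (0.931), and Gipr to Arl8a (0.939), Scg3 (0.928) and Rtn4 (0.923). Lower values were found for Chrm3 (Tmem258, 0.899; Krtcap2, 0.899; Serinc3, 0.887), Ffar4 (Kcnk1, 0.893; Smim11, 0.887; Nol4l, 0.863) and Galr1 (Preb, 0.876; Aldh9a1, 0.873; Abat, 0.869).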

How the data were processed

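Single-cell libraries (10x, 3′) and bulk libraries (SMARTer cDNA, Nextera XT, no strand) were used. The authors deposited raw counts: UMI counts per gene and cell from Cell Ranger on mm10, and read counts per gene from STAR 2.7.2b and HTSeq 0.9.1 on GRCm38.p6, the strand setting of which is not given in the sources used here. From these counts, levels were computed as CPM with TMM factors. Bulk libraries were tested with edgeR 4.0.16 (quasi-likelihood test, Benjamini-Hochberg adjustment) without a block. Bulk replicate numbers did not pair the samples (correlations -0.166, 0.0867 and -0.312).

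All 5982 deposited cells were taken, without a further filter. They already lay within the limits of the study, with at least 1001 UMIs and 500 genes and at most 6.97% mitochondrial counts. Of these, 130 were removed as doublets (a Scrublet threshold marked 10, 0.167%, which is too few to have worked, and a nearest-neighbour score the rest). Cells were assigned to hormone classes at the minimum between the modes of each hormone, and then limited by cluster. Unlike in the study, cells with Ppy and a second hormone were kept from any cluster high in a hormone. UMIs were summed per class and experiment and tested with edgeR with the experiment as a block. Sums of 1 experiment share libraries. Bulk p-values rest on the spread between libraries. Those of the single-cell sums rest on the spread left after the experiment block. That spread was pulled towards the spread of other genes, with a prior weight of 33.5 degrees of freedom. Small single-cell p-values are thus not a measure of a gene's own spread between pooled experiments. Intervals and floors of 3 UMIs cover counting error only. Named genes of the lists were those with the largest called change, up to 3 in each direction. The receptors and lists were chosen with earlier results of these data known. 6 columns of α- and β-cells in the bulk table were not used. Gene positions are from GENCODE on GRCm38. Alternatives were other normalizations (DESeq2 1.42.0), filters, thresholds, classes, blocks and left-out libraries. Both tests were tried on simulated counts first.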

Additional observations from a re-analysis of the deposited data

Results flagged for a closer look

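Adra2a had opposite directions in the 2 kinds of data. The log2 fold change of bulk γ-cells minus δ-cells was 2.74, with every γ-cell library above every δ-cell library, and that of the single-cell sums of Ppy+ minus Sst+ cells was -5.72, with both Ppy+ sums, of 1 UMI in all, below both Sst+ sums. The difference between these contrasts was not tested.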

How the results depend on the processing

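The bulk calls on the 9 receptors, 5 higher and 1 lower in γ-cells, were the same counts under all 19 alternatives, including the replicate block (6 called with it). Of 34 calls between single-hormone classes, 22 were left with Bonferroni adjustment and 29 with no replicate block. Of 8 calls on bihormonal cells, 5 were left with DESeq2, 4 with Bonferroni adjustment and 4 with no replicate block. With cells thinned to 1000 UMIs only Ffar1 and Ffar4 kept enough UMIs to be tested: 4 of their 9 calls between single-hormone classes and 1 of their 2 on bihormonal cells were left, and the other calls could not be tested. Among called values, those that changed sign were Ffar4 in Gcg+ minus Ins2+ cells, from -0.40 to 1.74 with 1 experiment left out, Gipr in Ins2+ minus Sst+ cells at -0.38 on total counts without TMM (an alternative chosen after seeing the data), and Gpr119 in Ppy+Sst+ minus Ppy+ cells at 0.16 with bihormonal cells of Ppy clusters only; the cause was not tested. The share of cells with any receptor UMI fell with thinning to 8.52% in Ppy+, 9.09% in Gcg+, 14.1% in Ins2+ and 12.1% in Sst+ cells. Over all genes in bulk, 3715 were higher and 2553 lower in γ-cells, against 3055 and 3746 with upper-quartile scaling, 3090 and 3583 without TMM, 3803 and 3787 with no filter and 3312 and 2061 with the replicate block. Leaving out 1 of 2 experiments gave values without a test. Ppy+Ins2+ cells of Ppy clusters were too few to be run. Glp1r had too few UMIs for a test except with no filter, and values in Sst+ cells, where 3 UMIs stand for 2.23 CPM, rest on few counts.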
